A study of Mus musculus with 10 samples.

Results

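The genes of the cardiomyocyte contractile apparatus were examined for chromatin accessibility in cells of the epicardial lineage, which are not cardiomyocytes. The set had 10 genes of 21911 protein-coding genes: the thin filament genes *Tnnt2*, *Tnni1* and *Actc1*, the myosin genes *Myh6*, *Myh7*, *Myl2* and *Myl7*, the scaffold genes *Actn2* and *Ttn*, and the calcium release channel gene *Ryr2*. Members were chosen by name, and a peak was assigned to a member when its summit lay inside the gene or within 25 kb of it on mm10. Of 836930 peaks in 9 peak lists, 689 were assigned in this way. Peaks of all lists were joined into 184764 regions reaching 250 bp to either side of a summit, of which 150 lay in the windows of the 10 genes. The windows of *Tnnt2* and *Tnni1*, which are neighbours on chromosome 1, overlapped, as did those of *Myh6* and *Myh7* on chromosome 14, and 14 regions were shared by a pair of genes.

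The sarcomere shortens when myosin heads on the thick filament pull on actin, and the troponin complex on the thin filament makes this dependent on calcium released through the ryanodine receptor. Titin spans the sarcomere from the Z-disc, where alpha-actinin anchors the thin filaments, to its centre. The epicardium is the mesothelium on the surface of the heart. After an epithelial-to-mesenchymal transition it gives rise to epicardium-derived cells (EPDCs), which become fibroblasts and mural cells rather than working muscle.

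All embryos were Rosa26tdTomato;Wt1CreERT2/+ on C57BL/6J, and tamoxifen was given to the mothers by gavage at E9.5, so that cells expressing *Wt1* at that time, and their progeny, carried tdTomato in every group. Epicardial cells (CD31-tdTomato+PDPN+) were sorted at E11.5 from 6 pooled littermate hearts per sample, and at E17.5 from 4, with 3 samples at each stage. EPDCs (CD31-tdTomato+PDPN-) were sorted from 1 sample at E12.5 and 2 biological samples at E13.5, the latter with 4 to 13 hearts per sample, and the technical replicates of E13.5 sample 2 shared 1 list. Each sort gave 40000 to 50000 cells. The label follows the activity of the *Wt1* promoter in a heterozygous Cre line, so any other cell that expressed *Wt1* at E9.5 would also be marked, and stage and cell population are not crossed, because EPDCs were taken at days between the epicardial stages.

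In ATAC-seq, the Tn5 transposase cuts open chromatin, and fragments pile up over accessible elements. Accessibility was expressed here as a percentile: the rank of the strongest overlapping peak, by −log10 p, among all peaks of the same list, with 0 where no peak was called. A value of 80 thus means that 80% of the peaks of that list were as weak or weaker, and a value of 0 means a signal below the threshold of the peak caller and not closed chromatin. Peaks numbered 97146, 109307 and 106554 in the E11.5 lists, 75234, 93617 and 82811 in those of E17.5, and 80019, 86566 and 105676 in those of EPDCs. The background solved from the lists was lowest in E17.5 replicate 1, with 2.07 fragments per position, and highest in E13.5 EPDC sample 2, with 10.9. The other 7 lists had 3.24 to 4.26. Promoters of 12 epicardial marker genes had mean percentiles of 68.4 to 72.8 at E11.5, 81 to 86.3 at E17.5 and 54.4 to 61.7 in EPDCs, while those of 10 mesenchymal genes had 60 to 63.9, 67 to 72.7 and 72.8 to 79.7. *Wt1* and *Tbx18* promoters were called in all 9 lists. Of 8 endothelial genes, 4 had no promoter peak in any list (*Pecam1*, which encodes CD31, *Cdh5*, *Tie1* and *Emcn*) and 4 had one in all 9 (*Kdr*, *Tek*, *Erg* and *Sox17*), with *Kdr* at 85.8 to 91.9. Of 8 blood genes only the macrophage gene *Cd68* had a promoter peak, at means of 50.6 at E11.5, 71.6 at E17.5 and 10.7 in EPDCs. In bulk samples, fewer cells with an open element and a weaker signal in each cell cannot be told apart.

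Sequences are shown first for the promoters on which the results turn, as the 250 bases before and 50 after the RefSeq start on GRCm38.p6, the build of mm10, read along the gene. They differ in how they were called: *Tnnt2* and *Actn2* in all 9 lists, *Actc1* and *Myl7* in only some groups, and *Myh6* in none. Capitals mark matches on either strand to AGATAA for GATA factors, CATTCC for TEAD, TNAAGTG for NKX2-5, AGGTGTGA for T-box factors, TGANTCA for AP-1, the SRF-binding CArG box or the MEF2 motif, and no printed matches overlap.
Tnnt2 promoter (chr1:135836084-135836383, plus strand): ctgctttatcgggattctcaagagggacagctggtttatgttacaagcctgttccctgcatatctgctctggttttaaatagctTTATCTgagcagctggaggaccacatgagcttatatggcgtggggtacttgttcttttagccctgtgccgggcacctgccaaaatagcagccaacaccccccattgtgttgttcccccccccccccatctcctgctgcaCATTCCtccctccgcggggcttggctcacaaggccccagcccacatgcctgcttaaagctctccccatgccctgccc
Actn2 promoter (chr13:12340683-12340982, minus strand): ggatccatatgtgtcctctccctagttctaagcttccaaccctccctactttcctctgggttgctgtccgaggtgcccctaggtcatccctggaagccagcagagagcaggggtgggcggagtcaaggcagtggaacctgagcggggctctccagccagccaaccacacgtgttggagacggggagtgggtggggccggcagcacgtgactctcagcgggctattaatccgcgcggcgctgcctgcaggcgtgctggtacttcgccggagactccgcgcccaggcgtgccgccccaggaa
Actc1 promoter (chr2:114052826-114053125, minus strand): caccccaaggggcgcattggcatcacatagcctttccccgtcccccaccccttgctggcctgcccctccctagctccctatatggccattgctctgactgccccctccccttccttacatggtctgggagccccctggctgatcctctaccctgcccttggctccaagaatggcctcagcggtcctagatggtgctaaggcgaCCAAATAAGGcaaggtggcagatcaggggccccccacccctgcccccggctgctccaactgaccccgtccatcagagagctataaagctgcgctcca
Myl7 promoter (chr11:5898733-5899032, minus strand): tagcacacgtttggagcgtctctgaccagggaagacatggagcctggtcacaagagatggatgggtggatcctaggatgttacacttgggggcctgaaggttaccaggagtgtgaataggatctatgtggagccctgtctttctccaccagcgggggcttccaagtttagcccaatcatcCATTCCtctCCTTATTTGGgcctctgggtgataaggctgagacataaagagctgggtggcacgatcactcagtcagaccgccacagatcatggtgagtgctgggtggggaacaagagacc
Myh6 promoter (chr14:54966558-54966857, minus strand): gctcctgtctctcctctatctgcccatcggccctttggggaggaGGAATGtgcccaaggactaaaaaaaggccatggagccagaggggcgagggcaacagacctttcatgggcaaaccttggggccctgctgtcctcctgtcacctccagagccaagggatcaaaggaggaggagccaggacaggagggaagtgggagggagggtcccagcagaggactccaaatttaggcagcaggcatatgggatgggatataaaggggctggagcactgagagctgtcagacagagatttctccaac

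*Actc1* and *Myl7* each held 1 CArG box, at −47 and −61 from the start, and such a match was present in 1.63% of all 32851 RefSeq promoters of the same length. The *Myl7* promoter also held a TEAD match at −70, *Tnnt2* a TEAD match at −27 and a GATA match at −166, and *Myh6* a TEAD match at −206. TEAD letters occurred in 14.7% of all promoters and GATA letters in 11.2%. *Actn2* had no match among the 7 motifs. *Actn2* held 19 CpG dinucleotides and *Ryr2* held 18, against a median of 7 over all promoters, while *Tnnt2* and *Myl7* each held 5 and *Myh6* held 2. A match is a description of letters only.

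The next sequences are the central 300 bases of the distal regions that differed most plainly between groups: an intron of *Ryr2* and an upstream region of *Actc1* that were uncalled at E17.5, and an upstream region of *Tnni1* that was called in EPDCs alone.
Ryr2 intron (chr13:12028155-12028454, plus strand): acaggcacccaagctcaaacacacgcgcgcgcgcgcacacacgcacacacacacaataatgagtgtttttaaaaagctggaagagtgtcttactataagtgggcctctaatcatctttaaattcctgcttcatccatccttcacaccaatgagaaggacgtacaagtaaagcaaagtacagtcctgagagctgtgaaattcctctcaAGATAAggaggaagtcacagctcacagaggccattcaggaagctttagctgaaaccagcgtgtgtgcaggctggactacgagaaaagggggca
Actc1 upstream region (chr2:114059746-114060045, plus strand): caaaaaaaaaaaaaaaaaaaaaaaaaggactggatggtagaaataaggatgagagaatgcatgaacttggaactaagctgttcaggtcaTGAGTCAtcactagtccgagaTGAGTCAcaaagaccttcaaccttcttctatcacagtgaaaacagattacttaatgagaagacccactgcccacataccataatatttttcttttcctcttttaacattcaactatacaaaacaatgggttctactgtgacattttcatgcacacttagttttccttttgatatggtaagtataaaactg
Tnni1 upstream region (chr1:135763570-135763869, plus strand): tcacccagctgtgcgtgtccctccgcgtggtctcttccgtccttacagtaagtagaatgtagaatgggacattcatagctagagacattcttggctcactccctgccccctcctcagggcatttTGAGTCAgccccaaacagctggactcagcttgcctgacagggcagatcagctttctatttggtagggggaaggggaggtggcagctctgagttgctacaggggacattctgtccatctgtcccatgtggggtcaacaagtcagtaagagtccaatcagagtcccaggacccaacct

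The *Actc1* upstream region held 2 AP-1 matches and the *Tnni1* region 1, and the *Ryr2* intron held a GATA match. Over the central 300 bases of all 184764 regions, AP-1 letters were present in 18.5%, GATA in 21% and TEAD in 24.3%. Among the 150 member regions these shares were 19.3%, 22.7% and 26%. The MEF2 motif was found in 10 member regions (6.67%), against 3.6% of all regions, the CArG box in 3 (2%, against 1.53%), NKX2-5 in 19 (12.7%, against 14.5%) and T-box in 2 (1.33%, against 1.13%).

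The promoters of these muscle genes ranged from wide open to uncalled in the same cells. Within 1 kb of the GENCODE gene start, 4 of 10 members (*Tnnt2*, *Tnni1*, *Actn2* and *Ryr2*) had a peak in all 9 lists and 2 (*Myh6* and *Myl2*) had none in any list. Of all 21911 protein-coding genes, 59.9% had a promoter peak in every list and 30.7% in none. At the RefSeq starts of *Tnni1*, 20 kb from its GENCODE start, only the E11.5 lists had a peak. Between the stages, the promoters of *Tnnt2*, *Tnni1*, *Actn2* and *Actc1* were lower at E17.5 and that of *Myl7* was higher. Over all promoters, limma called 8.99% lower and 2.3% higher at E17.5. In EPDCs the *Myl7* and *Myh7* promoters were lower than in epicardium and that of *Tnni1* was higher, against 7.92% and 6.34% of all promoters. The plot of promoter percentiles by list shows these patterns.

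**Figure D1:**
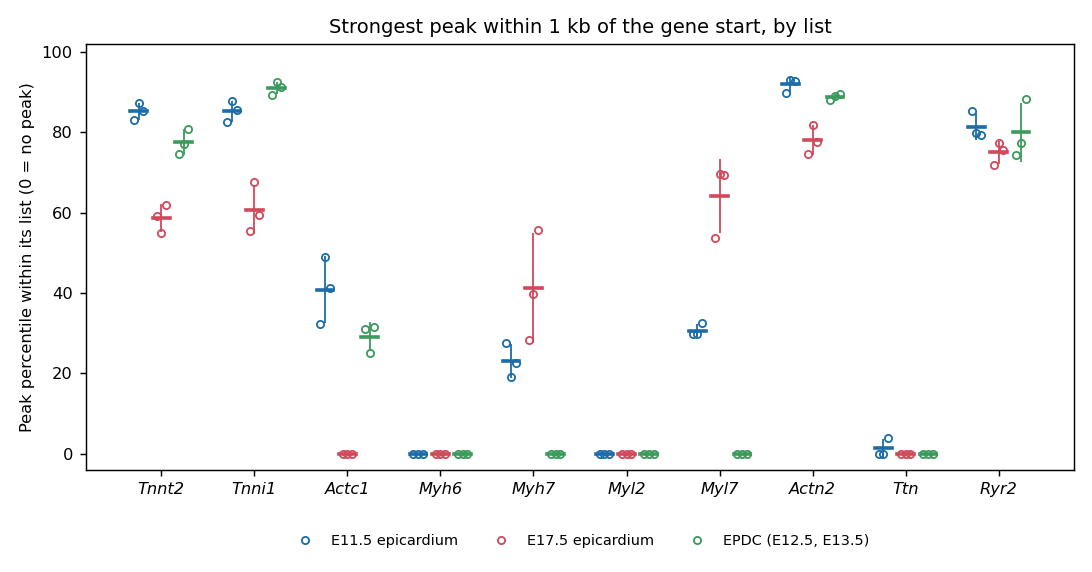
Percentile of the strongest peak within 1 kb of each gene start (y axis, 0 to 100, 0 where no peak was called) for the 10 genes (x axis), with a circle for each of 3 lists per group, a bar for the mean and a line for the SD. *Tnnt2*, *Tnni1*, *Actn2* and *Ryr2* lie above 50 in every list, *Myh6* and *Myl2* lie at 0, and *Myl7* and *Myh7* are above 0 only in epicardium.

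*Tnnt2* encodes cardiac troponin T, which ties the troponin complex to tropomyosin, and is the usual marker of cardiomyocyte identity (chr1:135836354-135852260, plus strand). Its promoter peak lay at percentiles 83.1, 87.4 and 85.2 at E11.5, 59.2, 55 and 62 at E17.5, and 74.6, 77.2 and 80.9 in EPDCs. Every E17.5 list was below every other list. The mean fell by 26.5 points, from 85.2 ± 2.18 (SD, n = 3) to 58.7 ± 3.54 (SE of the difference 3.15, limma adjusted p = 0.000208), and the exact permutation test over 20 assignments gave 0.1, the smallest p it can reach. EPDCs, at 77.6 ± 3.19, were not called different from epicardium (5.58 points, adjusted p = 0.237). The summit held 138, 173 and 141 fragments in the E11.5 lists and 53, 73 and 81 in the E17.5 lists. It stood 172 to 220 bp upstream of the start in the E11.5 lists, and in E17.5 replicates 2 and 3 it stood 29 and 16 bp downstream.

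Away from the promoter, *Tnnt2* had a region 25.9 kb from the start, beyond its 3′ end, that was its strongest on average, at percentiles 76 to 92.6 in all 9 lists. A region 29.4 kb from the start (chr1:135865490-135865990, intergenic) was called in every epicardial list and in no EPDC list. Its percentiles were 50.9, 60 and 54.9 in the E11.5 lists and 35.8, 59.5 and 58.5 in the E17.5 lists, with 33 to 85 fragments at the summit. The difference of EPDCs from epicardium was −53.3 points (SE 5.94, limma adjusted p = 0.000263; exact permutation p = 0.0119, the smallest of 84 assignments). Ranked by fold enrichment it was −32.7 points. The stages did not differ there beyond their spread (−3.99 points, adjusted p = 0.76). Inside the gene, an intronic region 11 kb from the start was also lower in EPDCs (30.7, 42.1 and 65.6, against 58.7 to 81.6 in epicardium; adjusted p = 0.031), although E13.5 sample 2 lay within the epicardial range.

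*Tnni1* encodes slow skeletal troponin I, the inhibitory troponin of the fetal heart. The gene start in GENCODE (chr1:135779434) belongs to an upstream transcript, and the RefSeq starts lie 20 kb and 20.1 kb further along, at 135799421 and 135799511. At the GENCODE start the peak lay at 82.5, 87.7 and 85.6 at E11.5, 55.4, 67.6 and 59.5 at E17.5, and 89.4, 92.6 and 91.2 in EPDCs. The 3 groups did not overlap. The stages differed by −24.5 points (SE 3.16, limma adjusted p = 0.000351), and EPDCs exceeded epicardium by 18 points (SE 2.73, adjusted p = 0.000729). Within 1 kb of the RefSeq starts, in contrast, only the E11.5 lists had a peak, at 25.5, 47.1 and 36.5, and with the window narrowed to 500 bp around the GENCODE start the EPDC difference turned to −27.9 points and the stage difference to 1.91 points. Taking the start of any transcript left neither difference called (2.49 and −1.43 points). The strongest region of the window lay 21.3 kb from the GENCODE start, in an intron just past the RefSeq starts, and was at 89.5 to 95.5 in all lists.

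The upstream flank of *Tnni1* held the only member region called in every EPDC list and in none of the 6 epicardial lists. It lay 15.7 kb upstream (chr1:135763470-135763970), and the nearest gene start was that of *Phlda3*, at 2.4 kb. The EPDC interval that covered it had percentiles of 57.8, 65.5 and 72.1, with 88, 140 and 368 fragments at its strongest summit, which stood in the neighbouring region at 15.1 kb. By that interval EPDCs exceeded epicardium by 65.1 points (SE 4.17, limma adjusted p = 1.39e-05; exact permutation p = 0.0119). By the summits inside the region itself the EPDC lists were at 19.8, 32.3 and 52.2, a difference of 34.8 points, and ranked by fold enrichment it was 32.5 points, both still called. Of all regions, 3.25% had this pattern, against 0.667% of the 150 member regions. The region at 15.1 kb had the same EPDC values and was also called at E11.5, at 17.8, 27.7 and 17.4, and not at E17.5.

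In the other direction, a region 33.4 kb from the *Tnni1* start, shared with the *Tnnt2* window (chr1:135812537-135813037), had percentiles of 64.3, 55.1 and 58.6 at E11.5, 76.7, 81.6 and 81.8 at E17.5, and 19.7, 12.9 and 22.2 in EPDCs. The region lay 5.81 kb from the nearest gene start, that of *Lad1*, and none of the groups overlapped in it. It was lower in EPDCs by 51.4 points (SE 3.77, limma adjusted p = 2.83e-05) and higher at E17.5 than at E11.5 by 20.7 points (SE 4.35, adjusted p = 0.00679), a value that became 43.9 by the summit inside the region and 34.6 with equal numbers of top peaks. An intronic region 13 kb from the start was called at E17.5 alone, at 30.7, 41.6 and 24.1 (adjusted p = 0.00156), and this call was lost when peaks were ranked by fold enrichment (4.43 points).

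*Actc1* encodes cardiac alpha-actin, the backbone of the thin filament (chr2:114047282-114053548, minus strand). Within 1 kb of its start, peaks were called in 3 of 3 E11.5 lists, 3 of 3 EPDC lists and no E17.5 list, but at different places. At E11.5 the summits stood at −745, −760 and −756 bp from the GENCODE start, with 38, 51 and 41 fragments. In EPDCs they stood at 614, 676 and 613 bp, with 27, 28 and 69 fragments, next to the RefSeq start, which lies 0.673 kb from the GENCODE start.

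Taken as separate regions, the upstream one was at 32.4, 48.9 and 41.3 at E11.5 and uncalled in the other 6 lists, and the one at the RefSeq start was at 31, 25 and 31.5 in EPDCs, at 0, 5.99 and 9.45 at E11.5 and at 0 at E17.5. The first was lower at E17.5 than at E11.5 by 40.9 points (SE 4.97, limma adjusted p = 0.000392). The second was higher in EPDCs by 26.6 points (SE 3.8, adjusted p = 0.000885; exact permutation p = 0.0119). With the lists cut to an equal number of top peaks, the fall of the *Actc1* promoter as a whole at E17.5 was no longer called (−18.5 points), and the upstream region fell by 18.4 points and the one at the RefSeq start was higher by 14.7, both still called.

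A region 6.3 kb upstream of *Actc1* (chr2:114059646-114060146) gave one of the most uniform patterns of the set. Percentiles were 67.4, 67.2 and 67 at E11.5, 67.3, 60.4 and 62.2 in EPDCs, and 0 in all 3 E17.5 lists. The summit held 71, 72 and 64 fragments at E11.5, whereas the weakest called regions of the set at E17.5 held 9 to 12. The fall to E17.5 was by 67.2 points (SE 4.01, limma adjusted p = 1.66e-05). EPDCs were called higher than the mean of the stages by 29.7 points (SE 3.47, adjusted p = 0.000308), a value that arose from the E17.5 lists, since each EPDC list lay within the E11.5 range or below it. The strongest *Actc1* region on average, 4.2 kb upstream, was at 52.8 ± 2.8 at E11.5 and 31.9 ± 5.3 at E17.5 (SD, n = 3; limma adjusted p = 0.00757), with EPDCs at 49.2 ± 2.3. This call was lost with equal numbers of top peaks (−10.8 points) and when ranked by fold enrichment (2.35 points), and fold enrichment at the summit went the other way, from 4.78, 4.93 and 5.64 to 6.14, 5.16 and 6.44.

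The 2 myosin heavy chain genes had little accessibility of their own. *Myh6* encodes the alpha heavy chain of atrial and adult ventricular muscle (chr14:54941921-54966927, minus strand). No list had a peak within 1 kb of its GENCODE start or of its RefSeq start. Inside the gene, peaks were weak: an intronic region 20.9 kb from the start was at 15.6, 31.9 and 17.2 at E11.5, at 10.8, 4.57 and 9.94 at E17.5 and uncalled in EPDCs (−15 points, SE 4.55, limma adjusted p = 0.0348), and rested on 12 to 28 fragments. By the summit inside the region it was uncalled in every E11.5 list, at 10.8, 4.57 and 0 at E17.5, and the EPDC difference was −2.55 points and not called, nor was it with equal numbers of top peaks (−2.11 points). The E11.5 summits stood in the neighbouring region at 20.4 kb. An exonic region 16.4 kb from the start was called in 4 lists, with 22 to 37 fragments.

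The strongest regions of the *Myh6* window lay past its 3′ end near other genes. The promoter of *Efs*, which encodes an adaptor of Src signalling, spans the regions 40.2 and 40.9 kb from the *Myh6* start. It was at 85.3, 90 and 88.9 at E11.5, 64, 63.7 and 67.8 at E17.5 and 91.7, 89.2 and 91.9 in EPDCs (stage difference −22.9 points, SE 1.81, limma adjusted p = 5.35e-05; EPDC difference 14.4 points, adjusted p = 0.000238). Ranked by fold enrichment these were −45.6 and 23.8 points. By the summit inside the region, the stage difference at 40.9 kb reversed to 44.9 points and the EPDC difference (33.4 points) was no longer called. An intergenic region at 36.8 kb (chr14:54929901-54930401) rose from 15.1, 9.28 and 11.9 at E11.5 to 61.7, 70.4 and 62.6 at E17.5 (52.8 points, SE 6.41, adjusted p = 0.000424; 28.1 points ranked by fold enrichment), with 19.8, 0 and 0 in EPDCs. The region at 27.4 kb, the nearest to the 3′ end of *Myh6*, was at 51.4 to 75.4 in epicardium and at 0, 10.7 and 44.1 in EPDCs (−47.9 points, SE 8.95, adjusted p = 0.00378).

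*Myh7* encodes the beta heavy chain, the main ventricular myosin before birth (chr14:54970684-54994626, minus strand). Its promoter peak was weak in epicardium, at 27.6, 19.1 and 22.6 in the E11.5 lists and 28.4, 39.9 and 55.7 in the E17.5 lists, and uncalled in EPDCs. It was lower in EPDCs by 32.2 points (SE 5.63, limma adjusted p = 0.00212; exact permutation p = 0.0119; −18.6 points with equal numbers of top peaks), and the stages were not called different (18.3 points, SE 6.5, adjusted p = 0.104), although equal numbers of top peaks gave a called rise of 32.8 points. Within 500 bp of the start the stage difference was 0.53 points. The summits rested on 26, 21 and 21 fragments in the E11.5 lists, and on 20, 38 and 51 in the E17.5 lists, where they stood 986, 841 and 814 bp inside the gene. A region 8 kb upstream (chr14:55002351-55002851, intergenic) went the other way: 63, 72.4 and 74.1 in EPDCs, against 22.7 to 42.6 at E11.5 and 5.42 to 39.5 at E17.5 (43.7 points, SE 8.21, adjusted p = 0.00385). Every EPDC list was above every epicardial list there. The strongest region of the window, at 97.1 to 99.3 in all lists, was the promoter of *Ngdn*, a gene of ribosome biogenesis.

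*Myl2* encodes the ventricular regulatory light chain (chr5:122100951-122113472, plus strand) and *Myl7* its atrial counterpart (chr11:5896637-5898782, minus strand). *Myl2* had no promoter peak in any list at the GENCODE start, and at its RefSeq starts, 7.76 and 8.23 kb further upstream, 1 of 9 lists had a peak, at the low percentile of 4.78. Of the 15 regions in its window, 2 (13.3%) were lower at E17.5 and none was higher, against 21.9% and 7.24% of all regions, and 1 (6.67%) was lower and none higher in EPDCs, against 17.504% and 15.6%. The strongest, 35.9 kb from the start in an exon of *Ccdc63*, lay at 81.2 to 92.6 in all lists. A region 6.1 kb upstream was at 20.5, 27.7 and 25.1 at E11.5 and 0 at E17.5 (−24.4 points, SE 3.91, limma adjusted p = 0.0017), and with equal numbers of top peaks it was uncalled in all 3 E11.5 lists.

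The *Myl7* promoter was the one of the 10 called higher at E17.5, while that of *Myh7* was called so with equal numbers of top peaks. Percentiles were 29.7, 29.7 and 32.5 at E11.5, 53.6, 69.6 and 69.3 at E17.5, and 0 in all 3 EPDC lists, so that the groups did not overlap. Fragments at the summit rose from 66, 66 and 64 to 84, 197 and 181, and fold enrichment over local background rose from 2.59, 2.68 and 2.85 to 3.72, 4.13 and 4.12. The stage difference was 33.5 points (SE 5.42, limma adjusted p = 0.00164), and EPDCs were 47.4 points below epicardium (SE 4.7, adjusted p = 1.62e-05; exact permutation p = 0.0238). Ranked by fold enrichment, the region at the start was lower in EPDCs by 10.3 points, which did not pass the threshold, and its stage difference was 13.4 points, against 56.1 with equal numbers of top peaks. All 6 epicardial summits stood 12 to 103 bp upstream of the start.

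Other regions of the *Myl7* window were also lower in EPDCs, 6 of 13 (46.2%) in all, and none was higher, against 17.504% and 15.6% of all regions. A region 6.4 kb from the start, past the 3′ end, was lower in EPDCs (−9.98 points, adjusted p = 0.000418), but by the summit inside the region the difference was −27.2 points and ranked by fold enrichment it was higher (5.61 points). The region at 5.7 kb took the same interval and is counted among the 6. By the summit inside it, that region was higher in EPDCs (15.5 points, limma adjusted p = 0.0289). The promoter of *Pold2*, a DNA polymerase subunit gene, was the strongest region of the window, at 97.3 to 99.3.

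*Actn2* encodes sarcomeric alpha-actinin, the crosslinker of the Z-disc (chr13:12269426-12340760, minus strand). Its promoter was the most accessible of the 10 at E11.5 and E17.5, at 89.9, 93.1 and 92.8, then 74.6, 82 and 77.7, and at 88, 89.1 and 89.4 in EPDCs. It fell by 13.9 points between the stages (SE 2.03, limma adjusted p = 0.000827) and was not called different in EPDCs (3.83 points, adjusted p = 0.2). Fold enrichment at the summit overlapped between the stages, at 13.54, 16.26 and 17.1, then 15.8, 18.7 and 15.5, and ranked by fold enrichment the region at the start differed by −1.11 points, which was not called. The summit stood 50 to 68 bp upstream of the start in all 9 lists, which makes it the most fixed of the members in position. Within the gene, an exonic region 32.5 kb from the start was at 36.9, 30.2 and 40.3 at E11.5, at 34.5, 35.5 and 43.9 in EPDCs, and uncalled at E17.5 (−35.8 points, SE 4.9, adjusted p = 0.000734; −11.3 points and not called with equal numbers of top peaks). An intronic region 46.8 kb from the start was uncalled in EPDCs and in E17.5 replicate 1, at 37.9 to 59.2 in the other 5 lists (EPDC difference −41.6 points, adjusted p = 0.0218; −29.3 points and not called with equal numbers of top peaks). Past the 3′ end, a region in an intron of *Mtr*, 93.8 kb from the start, was called at E17.5 alone, at 17.4, 46.1 and 32.1 (adjusted p = 0.00746). The strongest region of the window was the promoter of *Mtr*, the methionine synthase gene, at 97.4 to 99.4 in all lists.

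*Ttn* encodes titin (chr2:76703980-76982547, minus strand). The window of this long gene held few peaks: 14 regions lay in 329 kb, or 4.26 per 100 kb, the lowest density of the 10 genes, against 5.46 per 100 kb for *Ryr2* and 33.1 per 100 kb for *Tnni1*. The promoter had a peak in 1 list, E11.5 replicate 3, at percentile 3.93 with 12 fragments. One region, 54 kb from the start in an intron, was called in all 9 lists, at 58.2, 72.2 and 70 at E11.5, 41.4, 68.3 and 59.5 at E17.5, and 50.1, 61 and 64.3 in EPDCs, with no call in either comparison (adjusted p = 0.364 and 0.706).

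Of the 14 *Ttn* regions 8 (57.1%) were lower at E17.5 and none was higher, against 21.9% and 7.24% of all regions, and with equal numbers of top peaks 3 (21.4%) were lower, against 11.9%. The region with the smallest adjusted p lay past the 3′ end in an intron of *Plekha3* (chr2:76693197-76693697), at 58, 55.7 and 61.7 at E11.5 and uncalled in the other 6 lists (−58.5 points, SE 4.04, limma adjusted p = 2.79e-05). An intronic region 13.4 kb from the start was at 69.4, 73.1 and 75 at E11.5, in E17.5 replicate 2 alone at 47.4, and uncalled in EPDCs (stage difference −56.7 points, SE 11.6, adjusted p = 0.00635). An exonic region at 183 kb was at 41.6, 46.9 and 55.4 at E11.5, 0 at E17.5, and 0, 33.4 and 40.2 in EPDCs (−48 points, SE 9.82, adjusted p = 0.00622; −28.1 points with equal numbers of top peaks).

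*Ryr2* encodes the cardiac ryanodine receptor, through which the sarcoplasmic reticulum releases calcium (chr13:11553102-12106945, minus strand). Its promoter was at 85.4, 79.7 and 79.3 at E11.5, 72, 77.4 and 75.6 at E17.5, and 74.3, 77.4 and 88.4 in EPDCs. Every E17.5 list lay below every E11.5 list, with an exact permutation p of 0.1, the smallest possible, but limma did not call the stage difference (−6.44 points, SE 3.6, adjusted p = 0.364) or the EPDC difference (1.79 points, SE 3.12, adjusted p = 1). Fold enrichment went the other way, from 10.1, 9.42 and 9.6 at E11.5 to 11.4, 13.1 and 12.2 at E17.5. Of 27 intronic regions, 14 were called in all 3 E11.5 lists, 8 in all 3 EPDC lists and 3 in all 3 E17.5 lists, or 51.9%, 29.6% and 11.1%, against 55.4%, 45.5% and 43.8% of all regions. In every E17.5 list 23 were uncalled (85.2%, against 37.4% of all regions).

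The fall with the smallest adjusted p lay 78.6 kb from the start (chr13:12028055-12028555). Percentiles were 81.8, 73.4 and 76.6 at E11.5, 65.5, 64.4 and 65.5 in EPDCs, and 0 in all E17.5 lists, with 75 to 96 fragments at the E11.5 summits. The fall to E17.5 was by 77.3 points (SE 3.96, limma adjusted p = 1.16e-05). As for *Actc1*, EPDCs lay above the mean of the stages (26.5 points, SE 3.43, adjusted p = 0.00052). At this *Ryr2* region each EPDC list was also below each E11.5 list.

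A region 49.4 kb from the start (chr13:12057306-12057806) was reduced but still called at E17.5: 84.4, 88.7 and 88.5 at E11.5, 24, 36.3 and 19.3 at E17.5, and 74.5, 66.3 and 68.4 in EPDCs (stage difference −60.7 points, SE 4.78, limma adjusted p = 5.21e-05). Fragments at its summit fell from 109, 136 and 124 to 16, 30 and 20. The largest fall in points was at 352 kb, where a region was at 75, 81.6 and 83.8 at E11.5, 0 at E17.5 and 39.6, 6.56 and 15.9 in EPDCs (stage difference −80.1 points, SE 8.04, adjusted p = 0.00016). At 105 kb it was 59.1, 60.8 and 60.1, then 0, and 28.6, 30.2 and 44.9 (−60 points, SE 5.36, adjusted p = 8.28e-05). The strongest *Ryr2* region, 558 kb from the start and just past the 3′ end, was at 92.1, 95.1 and 92.9 at E11.5, 81.7, 87 and 81.5 at E17.5, and 87.9, 81.5 and 86.9 in EPDCs, a smaller fall between the stages (−9.99 points, SE 2.12, adjusted p = 0.00746) that was not called when ranked by fold enrichment (−2.08 points). In all, 16 of 33 *Ryr2* regions (48.5%) were lower at E17.5 and none was higher, against 21.9% and 7.24% of all regions. With equal numbers of top peaks 11 (33.3%) were lower, against 11.9% of all regions. The plot along the gene shows most introns uncalled at E17.5, while the promoter and the 3′ flank were called.

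**Figure D2:**
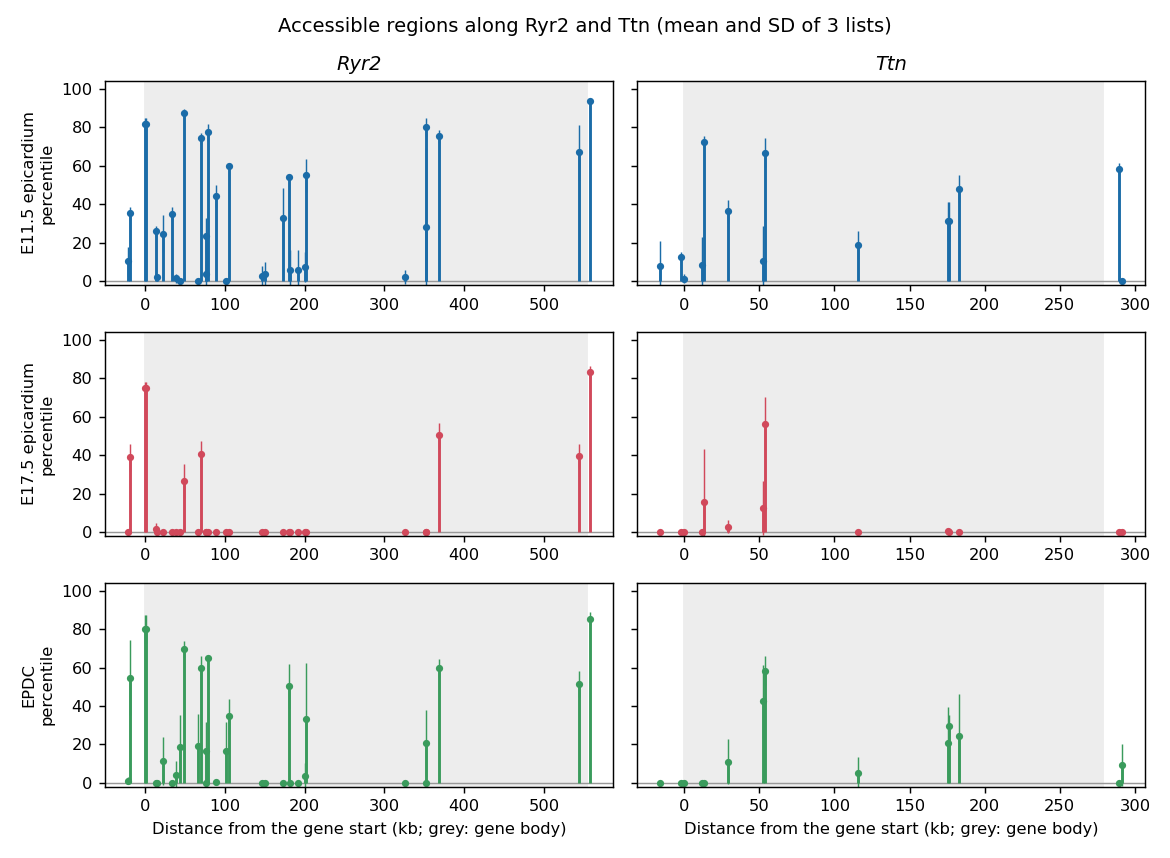
Mean percentile of each region (y axis, with the SD of 3 lists as a line; 0 where no peak was called) against its distance from the gene start in kb (x axis; the gene body is grey) for *Ryr2* and *Ttn*, in E11.5 epicardium, E17.5 epicardium and EPDCs from top to bottom. At E17.5, 23 of 27 intronic regions of *Ryr2* lie at 0 in every list, while the regions at both ends of the gene remain.

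Over the set as a whole, the comparison of the stages asked whether contractile loci lost or gained accessibility as the epicardium matured. Of the 150 member regions, 49 (32.7%) were lower at E17.5 and 10 (6.67%) higher, against 21.9% and 7.24% of all regions. The members' median difference was −9 points, and that of all regions −2.47. The E17.5 lists were shorter, so fewer weak peaks could be counted: with an equal number of top peaks from each list, 26 member regions (17.3%) were lower and 18 (12%) higher, against 11.9% and 11.3% of all regions, and the share of all called regions that were higher moved from 24.8% to 48.7%. The number of *Ryr2* regions called lower was then 11 and of *Ttn* regions 3. The lower members split by gene: *Ryr2* had 16, *Ttn* and *Tnni1* 8 each, and *Myh7* and *Myl7* none. For *Tnni1*, 8 lower and 4 higher became 4 lower and 9 higher with equal numbers of top peaks. Of the 49, 28 (57.1%) were uncalled in every E17.5 list, against 40.8% of all regions called lower, and of those 13 (46.4%) were called in all 3 EPDC lists and 8 (28.6%) in none, against 36.1% and 36.4% of all regions that were lower and uncalled at E17.5.

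**Figure D3:**
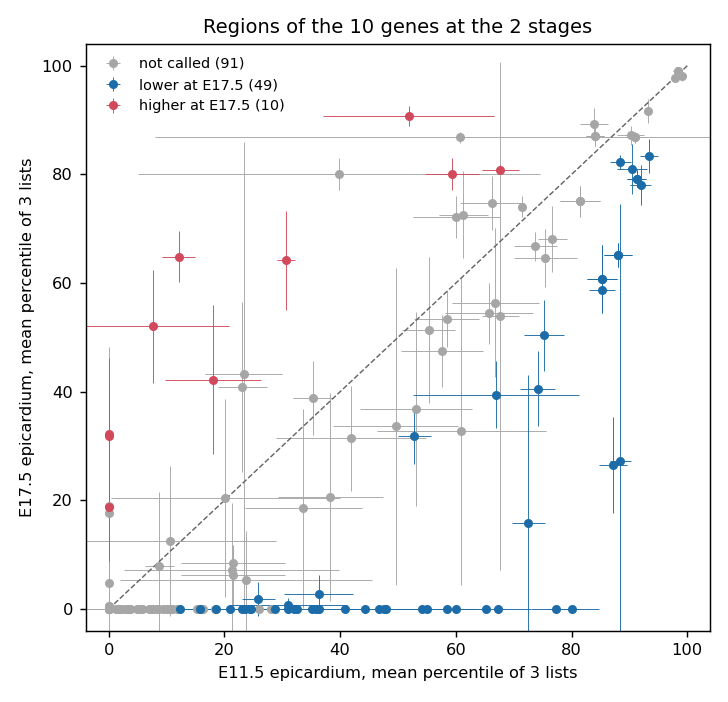
Mean percentile of each of the 150 member regions at E17.5 (y axis) against E11.5 (x axis), with the SD of 3 lists as lines and the diagonal of equal values dashed. The 49 regions called lower at E17.5 lie below the diagonal, 28 of them at 0 on the y axis in every list, and the 10 called higher lie above it.

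The count of peaks per gene makes no reference to regions, and it did not follow the region calls in every gene: the *Myh7* window, with no region called lower, held fewer peaks at E17.5, and the *Tnni1* window, with 8 called lower, held more per 100000. Per 100000 peaks of a list, the *Ryr2* window held 21.6, 23.8 and 20.6 peaks at E11.5, 9.3, 7.48 and 9.66 at E17.5, and 16.2, 20.8 and 18 in EPDCs. *Ttn* held 8.24, 10.1 and 8.45 at E11.5, 3.99, 3.2 and 3.62 at E17.5, and 5, 6.93 and 5.68 in EPDCs. Every E17.5 list was below every E11.5 list for 5 members (*Ryr2*, *Ttn*, *Actc1*, *Actn2* and *Myh7*), each with an exact permutation p of 0.1, the smallest possible with 3 against 3. The same pattern was found in 14.6% of 19425 gene windows with a peak. For *Tnni1* alone every E17.5 list was above every E11.5 list, which held for 37.0% of gene windows. EPDC lists were below all epicardial lists for *Myh7* alone, at 3.75, 4.62 and 4.73 against 4.83 to 9.26 (exact permutation p = 0.0357), against 7.91% of gene windows.

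**Figure D4:**
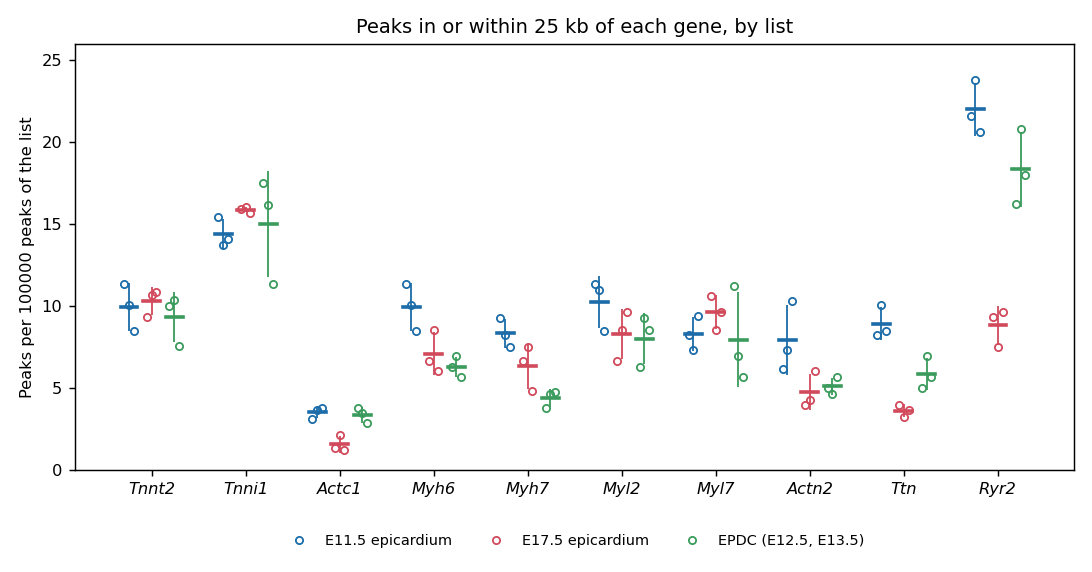
Peaks in or within 25 kb of each gene, per 100000 peaks of the list (y axis, from 0), for the 10 genes (x axis), with a circle for each of 3 lists per group, a bar for the mean and a line for the SD. *Ryr2* falls from between 20.6 and 23.8 at E11.5 to between 7.48 and 9.66 at E17.5, and *Tnnt2*, *Myh6*, *Myl2* and *Myl7* overlap between the stages.

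The comparison of EPDCs with epicardium asked whether the mesenchymal derivatives differed at these loci. Of the 150 regions, 30 (20%) were lower in EPDCs and 19 (12.7%) higher, against 17.504% and 15.6% of all regions, and the median differences were −1.97 and −1.15 points. Of the 30, 13 (43.3%) had every EPDC list below every epicardial list and 16 (53.3%) were uncalled in all EPDC lists, against 45.4% and 43.2% of all 32342 regions called lower. Of the 19, 6 (31.6%) had every EPDC list above every epicardial list, and 12 (63.2%) were uncalled in every E17.5 list, as at *Actc1* and *Ryr2* above, against 61.8% and 48.1% of all 28852 regions called higher. By gene, the lower calls were 8 of 27 regions for *Tnni1*, 6 of 13 for *Myl7* and 4 of 15 for *Tnnt2*, and the higher calls 5 of 27 for *Tnni1*, 4 of 15 for *Myh6* and 4 of 33 for *Ryr2*. A region shared by a pair of genes counts for both. *Myl2*, *Myl7* and *Ttn* had no region higher in EPDCs, although the *Myl7* region at 5.7 kb was higher by the summit inside it. The plot of selected regions shows the kinds of pattern side by side.

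**Figure D5:**
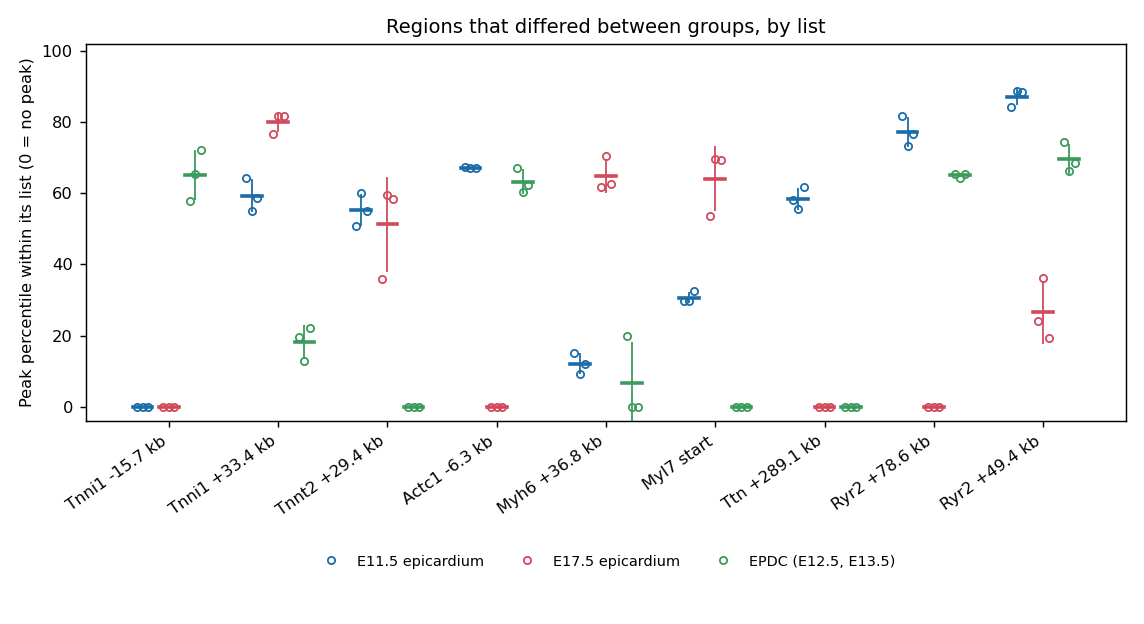
Percentile of 9 regions of the member windows (y axis, 0 where no peak was called), named by gene and distance from its start in kb (x axis), with a circle for each of 3 lists per group, a bar for the mean and a line for the SD. The regions were picked for their differences: the *Tnni1* region 15.7 kb upstream is called in EPDCs alone, those of *Actc1* and *Ryr2* at 6.3 and 78.6 kb are at 0 at E17.5 alone, and the *Myl7* start is at 0 in EPDCs alone.

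Other genes of cardiac muscle give the setting. Of 30 further cardiomyocyte genes, 17 (56.7%) had a promoter peak in all 9 lists and 8 (26.7%) in none, against 59.9% and 30.7% of all protein-coding genes. Another gene started within 2 kb of *Myl4*, *Myom1* and *Ckm*, which are among the 17. In EPDCs 8 of the 30 promoters (26.7%) were lower and 4 (13.3%) higher, against 7.92% and 6.34% of all promoters, and at E17.5 7 (23.3%) were lower and none was higher, against 8.99% and 2.3%. The counts for the lists that follow stand against the same shares of all promoters. The promoter of *Myoz2*, which encodes a Z-disc protein binding calcineurin, fell from 53 at E11.5 and 54.7 at E17.5 to 11.2 in EPDCs (−42.7 points), and that of *Nppb*, the gene of B-type natriuretic peptide, from 77.4 and 79 to 41.7 (−36.5 points). The promoters of *Csrp3* and *Mybpc3*, a Z-disc sensor and the myosin-binding protein C, fell by 39 and 38.7 points between the stages. *Casq2*, which encodes the calcium buffer that works with *Ryr2*, was higher in EPDCs (37 against 14.4 at E11.5 and 3.07 at E17.5, 28.3 points, limma adjusted p = 0.00511). Of the 529 regions in the windows of these genes, 17.4% were lower and 7.56% higher at E17.5, against 21.9% and 7.24% of all regions. With equal numbers of top peaks these were 9.64% and 14%, against 11.9% and 11.3%.

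Among 11 cardiac transcription factor genes, 9 (81.8%) had a promoter peak in every list, *Nkx2-5* included, at means of 40.3 at E11.5, 19.9 at E17.5 and 26.4 in EPDCs, and *Mef2c* had none. *Gata6* fell at E17.5 (−9.86 points), *Gata4* was lower (−9.24 points) and *Myocd*, the coactivator of SRF, higher in EPDCs (15.3 points). For 16 skeletal muscle genes, 4 promoters (25%) were called in all lists and 6 (37.5%) in none, with 3 higher and 3 lower at E17.5 (18.8% each), and 2 higher and 4 (25%) lower in EPDCs. Of the 4 called in all lists, *Mylpf* and *Actn3* have the start of another gene within 2 kb. Of the promoters of 8 smooth muscle genes, all were called in every list, and all 8 were lower at E17.5, from a median of 86.6 at E11.5 to 70.4, with 90.1 in EPDCs, where 3 (37.5%) were higher and none lower. For these genes 29.9% of 97 regions were lower at E17.5, and 16.5% with equal numbers of top peaks, against 21.9% and 11.9% of all regions. Among the 12 epicardial genes 4 promoters (33.3%) were higher and 3 (25%) lower at E17.5, and 7 (58.3%) were lower and none higher in EPDCs. Among the 10 mesenchymal genes 2 (20%) were higher and 1 (10%) lower at E17.5, and 3 (30%) were higher and 1 (10%) lower in EPDCs. Of the endothelial promoters 1 was lower at E17.5, that of *Erg*. *Cd68* alone of the blood genes changed, higher at E17.5 and lower in EPDCs, as the *Myl7* promoter was. The part of cell composition in the differences at the 10 genes was not tested.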

How the data were processed

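Bulk ATAC-seq peak lists of 9 libraries from 10 samples were analysed. The authors aligned reads to mm10 and called peaks in each library with MACS2 (2.2.9.1), with all summits kept and a q-value limit of 0.01. For every summit a deposited list holds the fold enrichment over local background and the −log10 p and −log10 q. The authors did not normalise these between libraries. Deposited values carry no read counts, so fragments at a summit were solved from fold enrichment and −log10 p, which was tested on simulated summits.

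Each interval was taken once, on chromosomes 1 to 19, X and Y. Windows reaching 250 bp either side of a summit were ranked by depth-normalised score, and a window overlapping a better one was dropped. A region takes the strongest interval that overlaps it by 1 bp, so that 7 member regions repeat the values of a neighbour. Percentiles were compared with limma 3.58.1 (R 4.3.3) over all 9 lists and all 184764 regions, or all 21911 promoters, with Benjamini-Hochberg adjustment and a threshold of 0.05. The EPDC contrast is set against the mean of both stages. The model was tested on simulated lists. Exact permutation tests were two-sided, over 84 and 20 assignments. Samples are separate pools of hearts, and 3 lists a group limit the precision of each SD.

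The genes, gene lists and tests were chosen with earlier results of these data known. Named regions were, per comparison and direction, the 6 of smallest adjusted p, each member's promoter and its strongest region, and for other lists up to 4 promoters with large differences. Further regions of the members were added after their values were seen. A pair of regions that the rule names is not reported here. Starts came from GENCODE M21, sequences and RefSeq starts from RefSeq on GRCm38.p6, where all 10 genes matched. Motif searches were tested on planted motifs. Python 3.11.15, numpy 2.4.6, pandas 2.3.3 and scipy 1.17.1 were used. Alternatives were a stricter q-value, equal numbers of top peaks, ranking by fold enrichment, a depth-normalised score, summits inside the region, regions called in several lists, other windows and starts, exact tests, a replicate block and each list left out. RefSeq starts, and counting regions that share an interval once, were added after the data were seen. The authors' window-count test by edgeR needs reads and was not repeated here.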

Additional observations from a re-analysis of the deposited data

How the results depend on the processing

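With an equal number of top peaks, regions lower at E17.5 numbered 26 in place of 49 and those higher 18 in place of 10. The depth-normalised score gave 17 higher at E17.5 (11.3%, against 12% of all regions) and 29 higher in EPDCs (19.3%, against 18.7%), in place of 19. Counting groups that do not overlap gave 62 lower (41.3%, against 30.2% of all regions) and 16 higher (10.7%, against 11.1%) at E17.5, and 8 higher (5.33%, against 10.1%) and 13 lower (8.67%, against 8.31%) in EPDCs, in place of 30. Leaving out 1 list at a time gave 41 to 50 lower and 7 to 11 higher at E17.5, 20 to 30 lower and 16 to 23 higher in EPDCs, and 5 to 7 members with fewer peaks at E17.5. Replicate numbers did not pair the samples (correlations of same-numbered lists of −0.00457, 0.0648 and −0.073), and with the replicate number as a block 42 regions were lower and 8 higher at E17.5. Promoters called in all lists numbered 3 or 4 under each alternative. Counting regions that share an interval once, an alternative chosen after seeing the data, gave 46 lower and 10 higher at E17.5 and 28 lower and 17 higher in EPDCs. Some single values of named regions and promoters reversed. These were the *Efs* promoter region at 40.9 kb by the summit inside the region (44.9) and the *Myl7* region at 6.4 kb by fold enrichment (5.61). The *Tnni1* promoter reversed within 500 bp (−27.9 in EPDCs and 1.91 at E17.5), and the *Actc1* region at 4.2 kb by fold enrichment (2.35). Member regions outside the named ones also reversed by the summit inside the region. Among them were the *Tnni1* region at the GENCODE start (−26.6 in EPDCs and 53.1 at E17.5) and the *Myl7* region at 5.7 kb (15.5 in EPDCs). Of the other alternative values, 367 of named regions and 73 of promoters kept their side of the threshold, 3 and 4 lost it and 1 of promoters gained it. The cause was not tested, except that equal numbers remove weak peaks from the longer lists. Depth sets what an uncalled region means: in E17.5 replicate 1 the weakest called member region held 9 fragments, and in E13.5 EPDC sample 2 it held 24.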
